A study of Mus musculus with 4 samples.

Results

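The spots described here are the places in brain sections of Pdcd10 knockout mice that carried transcripts of the neutrophil genes S100a8 or S100a9. A member spot is a spot of a knockout library with at least 1000 UMIs (unique molecular identifiers, each standing for 1 captured transcript) and at least 2 summed UMIs of S100a8 and S100a9. The rule took 658 of 9071 kept knockout spots, 276 of 4599 in knockout 1 and 382 of 4472 in knockout 2, out of 16098 kept spots in all 4 libraries. In the control libraries 73 of 7027 kept spots met the same rule, 35 in control 1 and 38 in control 2. The members were thus chosen by their measured UMIs of S100a8 and S100a9, so the levels of this pair are given as a description, and comparisons rest on the other genes. The label of the spots held only in part against other neutrophil genes, as given below. A set of them was clearly higher in member spots. In contrast, the granule genes Ngp, Camp and Ltf summed to 1 UMI in all 276 members of knockout 1 and 15 UMIs in the 382 members of knockout 2.

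The sections were 10 µm thick, cut from fresh-frozen mouse brain and measured with 10x Visium, a slide of barcoded capture areas, each wide enough to take RNA from more than 1 cell. Pdcd10 (Ccm3) encodes an adaptor protein whose loss in endothelium gives cerebral cavernous malformations, which are clusters of dilated, leaky vessels. The knockout mice were Slco1c1-iCreERT2;Pdcd10fl/fl, so deletion was driven from a brain endothelial promoter, and the controls were Pdcd10fl/fl littermates without Cre. Both groups received 50 µg of 4-hydroxytamoxifen on postnatal day 1 and were taken on day 65, with 2 libraries in each group. The titles and the design text say normoxia for all, a treatment label says hypoxia for the knockouts and normoxia for the controls, and the treatment protocol of all samples names 12% oxygen for 2 days. If the treatment label holds, genotype and oxygen cannot be told apart. Whether the 2 libraries of a group are from different animals is not given in the labels. The tests below therefore see the variation among these sections alone, and it can be technical.

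S100a8 and S100a9 encode the subunits of calprotectin, a calcium- and metal-binding protein that fills much of the neutrophil cytosol and can be released as a signal of tissue damage. Neutrophils make the contents of their granules in the bone marrow, where immature cells transcribe granule genes such as Ngp, Camp and Ltf, and mature circulating cells have largely shut those genes off and express Csf3r, Cxcr2, Il1r2, Retnlg and Mmp8. Few neutrophils are found in healthy brain tissue, where most lie in vessels and in the meninges. S100a8 (ENSMUSG00000056054) lies at chr3:90669071-90670034 and S100a9 (ENSMUSG00000056071) at chr3:90692630-90695721 on GRCm38.p6. The promoters of both genes are shown because their summed transcripts define the spots. The windows run from 250 bases before to 50 after each start and come from RefSeq on GRCm38.p6, at chr3:90668821-90669120 on the plus strand for S100a8 and chr3:90695672-90695971 on the minus strand for S100a9.
S100a8: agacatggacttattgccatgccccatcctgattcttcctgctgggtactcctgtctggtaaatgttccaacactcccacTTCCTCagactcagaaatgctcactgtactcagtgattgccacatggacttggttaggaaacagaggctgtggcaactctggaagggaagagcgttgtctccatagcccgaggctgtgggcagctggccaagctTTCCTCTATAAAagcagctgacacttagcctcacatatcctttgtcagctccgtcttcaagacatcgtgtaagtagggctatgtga
S100a9: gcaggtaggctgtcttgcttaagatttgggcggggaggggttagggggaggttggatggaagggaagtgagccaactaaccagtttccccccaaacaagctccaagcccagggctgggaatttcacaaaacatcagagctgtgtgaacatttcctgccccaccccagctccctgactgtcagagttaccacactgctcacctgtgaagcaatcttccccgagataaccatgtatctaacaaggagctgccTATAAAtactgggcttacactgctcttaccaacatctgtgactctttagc
Capitals mark matches, searched on both strands, to the TATA box core TATAAA and to the purine-rich motif GAGGAA, which holds the core bound by ETS factors such as PU.1 and is read on the shown strand of S100a8 as its reverse complement. S100a8 had 1 match to the TATA box core and 2 to the purine-rich motif, of which 1 lies directly beside the TATA box match without overlapping it. S100a9 had 1 match to the TATA box core and 0 to the purine-rich motif. Of 32851 promoter windows of this length, 13.6% held the TATA box core and 28.3% the purine-rich motif, so such matches are common and describe the letters alone.

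The deposited counts totalled 50148764 to 74467027 UMIs per library. The median kept spot held 15326 UMIs in control 1, 16226.5 in control 2, 8158 in knockout 1 and 13164.5 in knockout 2. All 4992 barcodes of the slide layout are shared by the 4 libraries, so a shared barcode marks a position of the array and not a shared cell. There were 32 barcodes that were members in both knockout libraries, 11.6% of the members of knockout 1 and 8.38% of those of knockout 2. Across whole sections S100a8 stood at 2.87 and 1.92 counts per 1000000 (CPM, scaled by TMM) in the controls and at 14.9 and 15.8 in the knockouts. S100a9 stood at 3.13 and 2.57 CPM in the controls and at 14.1 and 13.97 in the knockouts.

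Spots that met the rule were a larger part of the knockout sections. Members were 6.001% of kept spots in knockout 1 (95% exact binomial interval 5.33 to 6.73%) and 8.54% in knockout 2 (7.74 to 9.40%). The same rule took 1.19% of kept spots in control 1 (0.833 to 1.66%) and 0.928% in control 2 (0.657 to 1.27%). The intervals cover counting error only. They take the spots of a section as independent and do not measure variation between sections. After thinning spots of at least 5000 UMIs to 5000 each, which left out shallower spots, the shares were 1.93% and 2.51% in the knockouts and 0.529% and 0.665% in the controls. No test was made, since 2 libraries against 2 allow no exact p below 0.333.

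Most members were just inside the threshold. Exactly 2 UMIs were found in 173 of 276 members of knockout 1 and 202 of 382 of knockout 2, and exactly 1 UMI, just outside, in 724 and 761 further spots. The richest spot held 24 UMIs in knockout 1 and 89 in knockout 2, against 82 in control 1 and 32 in control 2. Both transcripts were found together in 153 members of knockout 1 and 235 of knockout 2, S100a8 alone in 68 and 80, and S100a9 alone in 55 and 67. The 10 richest kept spots held 8.19% and 13.1% of the UMIs of the pair in the knockouts and 59.4% and 39.5% in the controls, where far fewer spots had any (93 and 129 against 1000 and 1143). Spots that met the rule held 53.6% and 66.8% of these UMIs in the knockouts and 80.2% and 67.0% in the controls, so this share did not set the groups apart in every library.

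**Figure D1:**
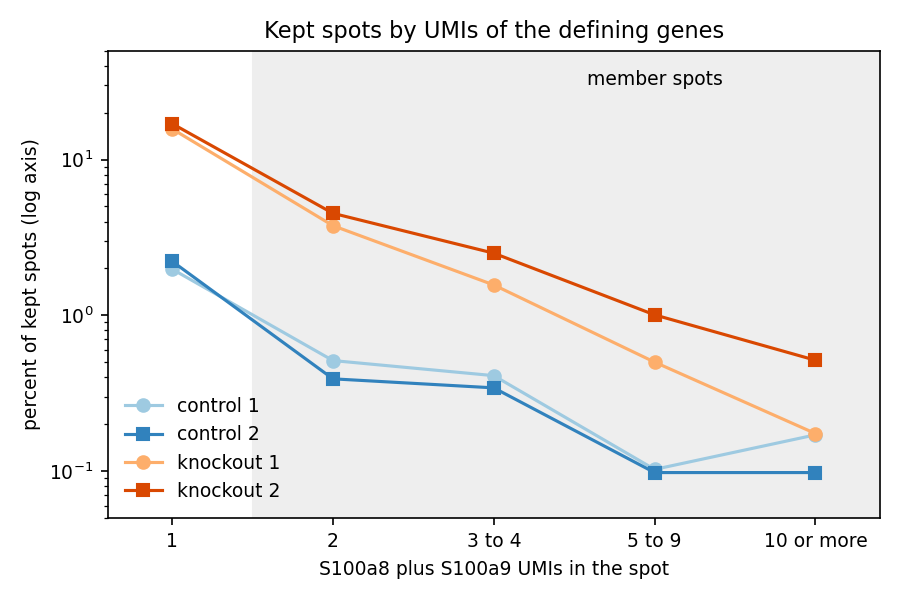
Percent of kept spots (log axis) by the summed UMIs of S100a8 and S100a9 in the spot, with 1 line per library and the member classes shaded. The knockout lines lie above the control lines at 1 UMI and up to 5 to 9 UMIs, while at 10 or more UMIs 8 spots of knockout 1 and 5 of control 1 fall on nearly the same share.

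Member spots were deeper than other kept knockout spots, with medians of 12853 against 7862 UMIs in knockout 1 and 17461 against 12698.5 in knockout 2. Each member was therefore compared with 3 non-member spots of its own library nearest in total UMIs. The 828 matched spots of knockout 1 had a median of 12851.5 UMIs and the 1146 of knockout 2 a median of 17463. Matched spots could still hold 1 UMI of the pair. Counts were summed per library and class, S100a8 and S100a9 were left out, and edgeR's quasi-likelihood test was run with the library as a block and Benjamini-Hochberg adjustment over all genes. Mitochondrial transcripts, a sign of RNA quality, were 7.81% and 7.60% of UMIs in members against 8.36% and 7.81% in matched spots, and their part in the results was not tested. A summed spot class cannot tell fewer cells of a type from less RNA per cell.

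Of 14816 genes tested, 308 rose and 341 fell in member spots, or 4.38% in all (2.08% higher, 2.3% lower). That count depended on the comparison spots: with matched spots drawn from the same expression cluster as each member, 21 genes rose (0.142% of 14790) and 4 fell (0.027%), or 0.169% in all. DESeq2 called 45 genes (0.304%), all 45 of them among the 649, and leaving out the library block left 3 (Retnlg, Ddc and Slc18a2), so the genes named below are given with their result in spots of the same cluster.

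Retnlg, the resistin-like gene of mature neutrophils, was the clearest companion of S100a8 and S100a9. It stood at 20.6 CPM in members and 2.87 in matched spots of knockout 1, and at 18.0 and 2.01 in knockout 2. Both libraries were alike, and members lay far above matched spots in each. The change was 8.12-fold (log2 3.02, SE 0.193, adjusted p = 7.10e-15 by edgeR), and Retnlg passed in all 11 alternatives in which it was tested, with adjusted p from 2.17e-55 to 0.00611. At least 1 Retnlg UMI was found in 18.5% of members against 3.99% of matched spots in knockout 1, and in 17.8% against 3.75% in knockout 2.

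Of the 31 genes of the neutrophil list, 13 had enough counts to be tested, 7 rose and 0 fell, where 2.08% of all genes rose. Their median log2 change was 1.60, against 0.00060 over all genes, and 10 of the 13 were higher in both libraries. Chil3, a chitinase-like secreted protein, stood at 10.99 and 19.6 CPM in members of knockouts 1 and 2 against 3.26 and 3.24 in matched spots (log2 2.31, SE 0.199, adjusted p = 3.50e-11 by edgeR). Mmp8, the neutrophil collagenase, stood at 3.66 and 3.83 CPM against 0.466 and 0.410 (log2 3.10, SE 0.432, adjusted p = 3.76e-06). Stfa2l1, a stefin-type protease inhibitor of a gene family with close copies whose reads may be split, stood at 2.29 and 4.32 CPM against 0.388 and 0.328 (log2 3.31, SE 0.466, adjusted p = 4.60e-06). These 4 genes also rose against spots of the same expression cluster, with log2 changes of 2.48 for Retnlg, 2.002 for Chil3, 2.53 for Mmp8 and 3.06 for Stfa2l1. They were in few spots and at few UMIs, so the 16 and 31 Mmp8 UMIs of the members set the precision. Stfa2l1 had 10 and 35 UMIs in members and, unlike Retnlg, Chil3 and Mmp8, did not pass in DESeq2 (adjusted p = 0.0835). By the share of all neutrophil list genes, 19.9% and 23.3% of members lay in the top 10% of their library's kept spots. The matched spots had 8.94% and 7.50% there, so most members were not rich in the other neutrophil genes.

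Wfdc21, Il1r2 and Csf3r also passed in the depth-matched comparison and did not against spots of the same cluster. Wfdc21, a small secreted protein, changed by 2.36 on the log2 scale (SE 0.574), from 6 and 15 UMIs in members. Il1r2, the decoy receptor for interleukin-1, stood at 4.58 and 6.54 CPM against 2.72 and 2.34 (log2 1.22, SE 0.274). Csf3r, the receptor for the growth factor G-CSF, stood at 6.41 and 6.42 CPM against 2.87 and 3.94 (log2 0.87, SE 0.247). The chemokine receptor Cxcr2 (log2 1.60, SE 0.562) and the formyl peptide receptor Fpr2 (1.9996, SE 0.645) were higher in both libraries but did not pass, at 9 and 10 UMIs and 7 and 8 UMIs in the members. Neither did Asprv1, an aspartic protease (0.92, SE 0.318), nor Mmp9, the gelatinase (0.25, SE 0.300). Hdc, which makes histamine, had a log2 difference of -0.03 and Prtn3, a primary granule protease, one of -0.26; only 5.3% and 8.4% of kept-spot Hdc UMIs and 9.8% and 8.0% of those of Prtn3 lay in member spots of the knockouts.

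**Figure D2:**
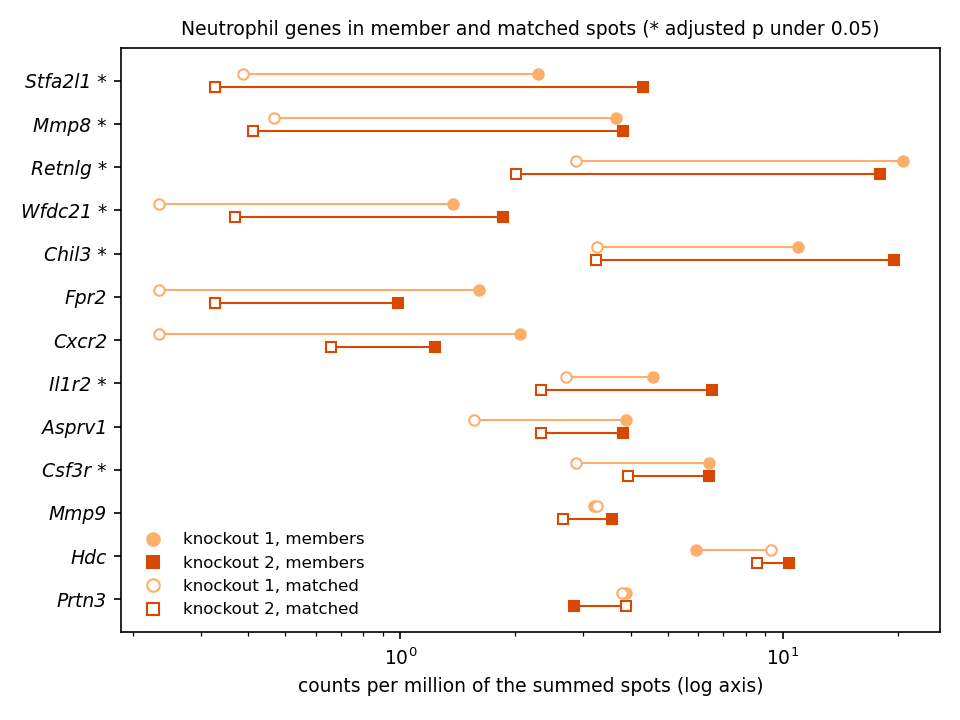
CPM (log axis) of the 13 tested neutrophil genes in member spots (filled) and depth-matched spots (open) of each knockout library; an asterisk marks an adjusted p under 0.05 by edgeR. Retnlg lies at 20.6 and 18.0 CPM in members against 2.87 and 2.01 in matched spots, while Hdc, Mmp9 and Prtn3 show no shift that both libraries share.

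The other 18 genes of the list had too few UMIs to be tested. In knockout members 7 of the 31 genes had 0 UMIs (Elane, Ctsg, Stfa2, Stfa3, Fcnb, Padi4 and Mrgpra2b), and 11 untested genes had between 1 and 15 UMIs over both libraries. Ly6g, a surface marker used to stain mouse neutrophils, had 1 UMI in the members of each library. Trem1, a receptor that amplifies inflammatory signals, had 2 and 11 UMIs, Stfa1 had 3 and 12, and the interferon-induced Slfn4 had 3 and 10. Mpo, the myeloperoxidase of primary granules, had 0 and 1.

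Retnlg followed the number of S100a8 and S100a9 UMIs in the spot. In knockout 1 it stood at 3.28 UMIs per 1000000 in spots with 0 UMIs of the pair, 5.27 at 1 UMI, 10.2 at 2, 16.3 at 3 to 4, 69.6 at 5 to 9 and 145 at 10 or more. In knockout 2 the same classes stood at 2.21, 3.56, 9.04, 11.6, 22.8 and 87.9 per 1000000. Spots just outside the rule, with 1 UMI, were thus nearer to spots with 0 than to members. The 2 highest classes were small, with 23 and 8 spots in knockout 1 and 45 and 23 in knockout 2. The neuron genes of the list stayed between 6394 and 7379 per 1000000 in every class of both knockouts.

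The granule genes Ngp, Camp and Ltf had more UMIs in the few control spots that met the rule than in the many knockout members. Ngp, Camp and Ltf, which encode secondary granule proteins, had 23, 9 and 5 UMIs in the 35 spots of control 1 and 12, 20 and 3 in the 38 of control 2. In knockout members they had 1, 0 and 0 UMIs in knockout 1 and 10, 4 and 1 in knockout 2. Other neutrophil genes were found in both groups of spots. Retnlg had 6 and 6 UMIs in the control spots and 90 and 146 in the knockout members, Chil3 had 11 and 5 against 48 and 159, and Wfdc21 had 2 and 2 against 6 and 15. Mmp8, the neutrophil collagenase, had 0 and 2 UMIs in the control spots against 16 and 31 in the knockout members. These counts come from unequal numbers of spots that S100a8 and S100a9 chose, so they are a description. Within control 1, single spots held 27, 16 and 12 UMIs of the whole neutrophil list. That list includes Hdc, which had 39 UMIs in the 35 spots of control 1, against 37 for Ngp, Camp and Ltf together. Which genes filled the single spots was not examined. How far Ngp, Camp and Ltf rested on single control spots was not tested. In the interaction test described further on, neither Ngp (knockout minus control -3.82, adjusted p = 0.186 by edgeR) nor Camp (-3.21, adjusted p = 0.448) passed.

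Whole sections, whose kept spots were summed without regard to the rule, were compared as well. Of 19 tested neutrophil genes, 14 rose and 2 fell in the knockouts, in a comparison in which 20.1% of 17546 genes rose and 18.3% fell, 38.4% in all. Retnlg rose from 0.205 and 0.212 CPM to 5.01 and 4.05 (log2 4.42, SE 0.235, adjusted p = 2.94e-05 by edgeR), and Chil3 from 0.246 and 0.163 CPM to 4.23 and 5.56 (log2 4.61, SE 0.271, adjusted p = 4.83e-05). Csf3r stood at 1.62 and 1.40 CPM in the controls and at 3.64 and 4.04 in the knockouts (log2 1.36, SE 0.161), and Il1r2 at 0.532 and 0.586 against 2.75 and 2.92 (log2 2.33, SE 0.188). Hdc and Mmp9, which did not pass between members and matched spots, rose over whole sections by 1.20 and 0.85 on the log2 scale. The 2 that fell were Camp (0.348 and 0.472 CPM in the controls against 0.0185 and 0.104; log2 -2.57, SE 0.556, adjusted p = 0.0106) and Trem3, a receptor of the same family as Trem1 (0.287 and 0.244 CPM against 0.0927 and 0.0650). Ngp did not pass (log2 -1.76, SE 0.661, adjusted p = 0.0716).

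**Figure D3:**
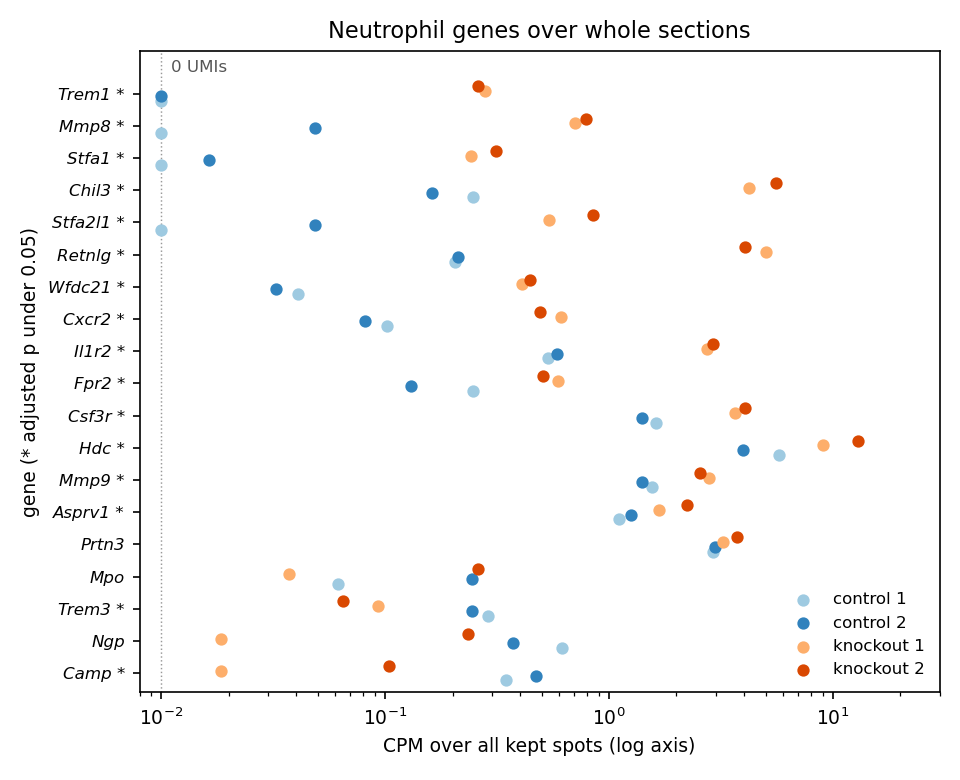
CPM (log axis) of the 19 neutrophil genes tested over whole sections, with 1 point per library, an asterisk for an adjusted p under 0.05 by edgeR, and libraries with 0 UMIs drawn at the left edge. Both knockouts lie to the right of both controls for Retnlg and Chil3, and to the left for Camp and Trem3.

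Haemoglobin transcripts went with the member spots. All 4 tested globin genes rose, while Alas2, which starts haem synthesis in red cell precursors, did not pass. Hbb-bs stood at 550 CPM in members and 375 in matched spots of knockout 1, and at 1167 and 439 in knockout 2 (log2 1.01, SE 0.0839, adjusted p = 1.38e-11 by edgeR). Hba-a1, Hba-a2 and Hbb-bt changed by 1.09, 1.06 and 1.10 on the log2 scale. The globin genes are near-identical copies, so their separate values are uncertain, and all 4 rose in spots of the same cluster as well (0.89 to 1.01) but did not pass in DESeq2. Ranked by the share of red cell genes, 13.04% and 17.8% of members lay in the top 10% of their library's kept spots, against 4.6% and 6.5% of matched spots.

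Some chemokine genes also rose, mostly in knockout 2. Of 7 tested genes of the list of neutrophil attractants and growth factors, Cxcl2, Cxcl1 and Ccl4 rose, where 2.08% of all genes rose. Cxcl2, a ligand of Cxcr2, stood at 1.60 CPM in members and 0.233 in matched spots of knockout 1, and at 10.2 and 1.93 in knockout 2 (log2 2.44, SE 0.307, adjusted p = 4.91e-07). Cxcl1, another Cxcr2 ligand, stood at 0.687 and 0.854 CPM in knockout 1 and at 13.7 and 3.08 in knockout 2 (log2 1.90, SE 0.285, adjusted p = 1.42e-05). Ccl4 had 2 UMIs in members of knockout 1, where it was lower than in matched spots, and 39 in knockout 2. Cxcl1 and Ccl4 thus rested on knockout 2. Cxcl2 and Cxcl1, and not Ccl4, passed in spots of the same cluster. By DESeq2 neither Cxcl2 (adjusted p = 0.0556) nor Cxcl1 or Ccl4 passed.

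Cxcl10, an interferon-induced chemokine, stood at 9.16 and 2.95 CPM in members and matched spots of knockout 1, and at 76.1 and 15.2 in knockout 2 (log2 2.23, SE 0.121, adjusted p = 7.21e-17). It was found in 3.62% and 17.8% of members, and 1 spot held 16 of the 40 UMIs in knockout 1 and 138 of the 617 in knockout 2. Ccl2, which draws monocytes, stood at 1.83 and 1.01 CPM in knockout 1 and at 34.4 and 10.3 in knockout 2 (log2 1.69, SE 0.163, adjusted p = 7.84e-10). Cxcl10 and Ccl2 also rose in spots of the same cluster, by 1.97 and 1.65. Within that set Ccl2 of knockout 1 was not higher, at 1.83 CPM against 2.34.

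Of 23 tested interferon response genes, 9 rose (Cxcl10, Rsad2, Ccl5, Ifit1, Gbp2, Isg15, Rtp4, Irgm1 and Ifit3) and 0 fell, with a median of 0.35. The share of all genes that rose was 2.08%. Rsad2, the antiviral enzyme viperin, stood at 5.27 and 2.64 CPM in members and matched spots of knockout 1, and at 26.0 and 6.81 in knockout 2 (log2 1.76, SE 0.182, adjusted p = 4.62e-09). Ccl5, a chemokine for T cells, changed by 1.47 (SE 0.281), and 11 of its 20 UMIs in members of knockout 1 lay in 1 spot. In spots of the same cluster 3 of these genes passed, Cxcl10, Rsad2 and Ccl5. By DESeq2 Cxcl10 and Rsad2 passed and Ccl5 did not (adjusted p = 0.584). Irgm1, an interferon-induced GTPase, changed by 0.54 (SE 0.121) in the depth-matched comparison alone.

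Reactive astrocyte genes rose in number but by small amounts. Of 20 tested, 10 rose and 0 fell, with a median of 0.34, where 2.08% of all genes rose. Lcn2, a siderophore-binding protein that reactive astrocytes and neutrophils both make, stood at 46.9 and 26.4 CPM in members and matched spots of knockout 1, and at 69.6 and 33.1 in knockout 2 (log2 0.99, SE 0.0846, adjusted p = 3.36e-11). Serpina3n, a protease inhibitor of reactive astrocytes, changed by 0.36 (SE 0.0470) and Timp1, an inhibitor of metalloproteases, by 0.44 (SE 0.0858). In spots of the same cluster Lcn2 (0.65) and Cxcl10 passed and the other 8 did not.

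Some other myeloid and blood genes rose against depth-matched spots. Of 20 tested genes of shared myeloid activation 3 rose, Il1b, Lrg1 and Ptgs2. Beside this count and that of the haem and iron genes below stands the 2.08% of all genes that rose. Il1b, the cytokine interleukin-1 beta, had 13 and 22 UMIs in members and stood at 2.98 and 2.71 CPM against 0.854 and 0.820 in matched spots (log2 1.74, SE 0.410, adjusted p = 0.00639). Lrg1, a secreted glycoprotein of neutrophils and endothelium, changed by 0.83 (SE 0.208), and Ptgs2, the inducible cyclooxygenase, by 0.62 (SE 0.143). None of the 3 passed in spots of the same cluster. Of 11 tested haem and iron genes 3 rose: Hp, the haemoglobin-binding haptoglobin (1.87, SE 0.391), Hmox1, which breaks down haem (0.55, SE 0.143), and Lcn2. Saa3, an acute phase protein, changed by 1.09 (SE 0.222), but 6 of its 16 UMIs in members of knockout 1 lay in 1 spot. In spots of the same cluster Lcn2 passed, and Hp (log2 1.73, adjusted p = 0.100 by edgeR), Hmox1 (0.28) and Saa3 (0.91) did not.

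Markers of other immune cells in 4 lists did not pass the test, where 2.08% of all genes rose and 2.3% fell. Only 5 of 17 lymphocyte and 5 of 12 platelet genes had enough counts, against 10 of 10 homeostatic microglia genes. Of 9 tested monocyte and border macrophage genes, 10 homeostatic microglia genes, 5 lymphocyte genes and 5 platelet genes, 0 passed in edgeR. Their medians were 0.20, 0.12, -0.46 and 0.08 on the log2 scale. At an unadjusted p under 0.05 the whole table held 2108 genes, and DESeq2 called 0 genes of these lists. Csf1r, the growth factor receptor of microglia, differed by 0.18 (SE 0.0662). Ms4a6c and Vcan, of monocytes, differed by 0.20 and -0.19, Ighm and Trbc2, of B and T cells, by -0.56 and -0.58, and Gp1bb and Itga2b, of platelets, by 0.08 and -0.05. Of 17 tested genes of activated phagocytes 1 rose, the protease gene Ctss (0.21, SE 0.0574), which did not pass in spots of the same cluster (0.12), and Apoe, the lipid carrier, differed by -0.06 (SE 0.0370). By share of phagocyte genes, 9.8% and 5.5% of members and 8.9% and 8.6% of matched spots lay in the top 10% of their library.

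Receptors for S100a8 and S100a9 did not pass either. Of 6 tested (0 called, median 0.16), Bsg stood at 847 and 828 CPM against 796 and 775, and Cd14, the co-receptor of Tlr4, at 10.1 and 11.4 CPM against 9.32 and 9.31. Of 12 other S100 and annexin genes 2 rose by small amounts, S100a11 (0.26, SE 0.0731) and S100a10 (0.19, SE 0.0562). Of 9 leukocyte adhesion genes 1 rose, the hyaluronan receptor Cd44 (0.50, SE 0.124), while the integrin Itgb1 differed by 0.09. Neither S100a11, S100a10 nor Cd44 passed in spots of the same cluster, where their log2 differences were 0.21, 0.12 and 0.22. Their background in the depth-matched comparison is the 2.08% of all genes that rose.

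Vessel genes differed little. Beside the counts below stand the 2.08% of all genes that rose and the 2.3% that fell. Of 14 tested lesion endothelium genes 2 rose: Angpt2, which loosens vessels, stood at 11.9 and 12.0 CPM against 7.22 and 7.998 (log2 0.63, SE 0.171), and Apln, a ligand of angiogenic endothelium, at 33.9 and 34.9 CPM against 27.8 and 24.3 (0.43, SE 0.100). Neither passed in spots of the same cluster. By the share of lesion endothelium genes, 6.2% and 7.9% of members lay in the top 10% of their library against 6.8% and 8.2% of matched spots. Of 12 pan-endothelial genes 0 passed, with Cldn5, a tight junction protein, at 0.06 (SE 0.0572) and Egfl7 at 0.12 (SE 0.0740). Of 10 blood-brain barrier genes the transporter Slco1a4 fell by 0.28 and Slc2a1, the glucose transporter, differed by -0.01. Of 10 mural genes Acta2 of smooth muscle fell by 0.52 and the pericyte gene Vtn by 0.25, and 0 rose. Slco1a4, Acta2 and Vtn did not pass in spots of the same cluster, where their log2 differences were -0.12, -0.26 and -0.05.

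Among 14 fibroblast and matrix genes Timp1 and Fbln5 (0.40, SE 0.0739) rose and Sparc fell by 0.33 (SE 0.0414), and in spots of the same cluster none of the 3 passed (0.33, 0.21 and -0.05). Of 13 coagulation genes 2 rose, among them S100a10, and 0 passed in spots of the same cluster. For this and the next counts, 2.08% of all genes rose. Of 13 complement genes C4b rose by 0.22, while C1qb differed by 0.14 (SE 0.0555). Of 13 hypoxia genes 4 rose, all by small amounts: Hk2 (0.70, SE 0.211), Vegfa (0.30), Ldha (0.24) and Bnip3 (0.19). None of the genes named in the last 2 sentences passed in spots of the same cluster, and of 9 cell cycle genes 0 passed, with Pcna at 0.09 and Cdk1 at 0.04. The choroid plexus (Otx2 -0.66, Kl -0.08) and ependyma (Rarres2 0.11, Foxj1 -0.0044) lists had 0 calls among 4 and 5 genes.

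A few large rises rested on single spots. Cartpt, a neuropeptide gene, rose by 0.97 on the log2 scale (SE 0.0594, adjusted p = 1.97e-15), but 1 member held 588 of its 1015 UMIs in knockout 1 and 1 held 2295 of 3840 in knockout 2. Without the richest spot of each class and library the mean log2 difference was -0.06. The same 2 spots held 86 and 205 UMIs of Ucn, the neuropeptide urocortin, which rose by 1.34 (SE 0.120) and stood at 0.29 without the richest spots. They had 24 and 2 UMIs of S100a8 and S100a9. Cd24a, a surface glycoprotein, rose by 0.92 (SE 0.129), from 13.4 to 14.2 CPM in knockout 1 and from 24.2 to 55.0 in knockout 2, so its value came from knockout 2. All 3 genes also passed in spots of the same cluster, by 2.27 for Cartpt, 2.74 for Ucn and 0.64 for Cd24a, with the same rich spots among the members. Retnlg (2.96) and Cxcl10 (2.14) kept their direction and size without the richest spots.

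The largest falls included the genes of dopamine synthesis and transport Slc6a3, Th, Slc18a2 and Ddc, for which no list was tested. Slc6a3, the dopamine transporter, stood at 24.3 CPM in members and 75.2 in matched spots of knockout 1, and at 19.2 and 131 in knockout 2 (log2 -2.36, SE 0.116, adjusted p = 6.25e-18). Th, the first enzyme of dopamine synthesis, fell by 2.14 (SE 0.110), Slc18a2, which loads monoamines into vesicles, by 1.77, and Ddc, which makes dopamine from L-DOPA, by 1.53. The nicotinic receptor subunit Chrna6 fell by 2.24, the transporter Slc10a4 by 2.02, and the transcription factors En1 and Shox2 by 1.71 and 1.23. Klhl1 fell by 1.32. In spots of the same cluster 1 of these 9 passed, Slc6a3, with a log2 change of -0.59. These genes are in no list, so they were not kept out of the clustering. Slc6a3, Th, Ddc and Slc18a2 are the leading genes of cluster 11, described below. Matching within clusters could remove their difference by construction, so it is no independent check of them.

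Cortical and white matter genes moved in the same frame, where 2.08% of all genes rose and 2.3% fell. Of 10 myelin genes 9 fell and 0 rose, with a median of -0.45: Mbp, the myelin basic protein, stood at 1732 and 1122 CPM in members against 2826 and 1636 in matched spots (log2 -0.62, SE 0.0415), and Mobp and Mag fell by 0.51 and 0.60. Among 13 neuron genes 5 rose and 3 fell. Slc17a7, the glutamate transporter of cortex, stood at 1070 and 1030 CPM against 828 and 885 (log2 0.29, SE 0.0443), Neurod6 rose by 0.48 and Nrgn by 0.23. Slc17a6, the glutamate transporter of thalamus and brainstem, fell by 0.84 (SE 0.0695). Of 7 inhibitory neuron genes the interneuron genes Sst (0.51) and Vip (0.31) rose and Pvalb fell by 0.42. Ptgds, an enzyme abundant in meninges and white matter, fell by 0.66, and Igf2, also of the meninges, differed by -0.34. None of the genes named in this paragraph passed in spots of the same cluster, where the median of the myelin list was -0.02.

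The share of members differed between expression clusters, which were built from genes outside the lists and have no position in the section. In cluster 5, led by Ccn3, Crym and Vxn, 13.1% of knockout 1 spots and 17.6% of knockout 2 spots were members. In cluster 11, led by Slc6a3 and Th, these shares were 3.20% and 3.97%, and in cluster 2, led by Gm42418, Lars2 and Malat1, 0.814% and 2.25%. The libraries disagreed in cluster 10, led by Crym, Cpne7 and Hpca, where 0 of 65 spots in knockout 1 (which, taken as 3 counts of the total, allows a share of up to 4.62%) and 58 of 204 in knockout 2 (28.4%) were members. Cluster 9, led by Penk and Rprm, had 27 members among 180 spots in knockout 1 and 26 among 310 in knockout 2. The clusters were not tested against each other, since depth and cluster go together and each library is 1 section.

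**Figure D4:**
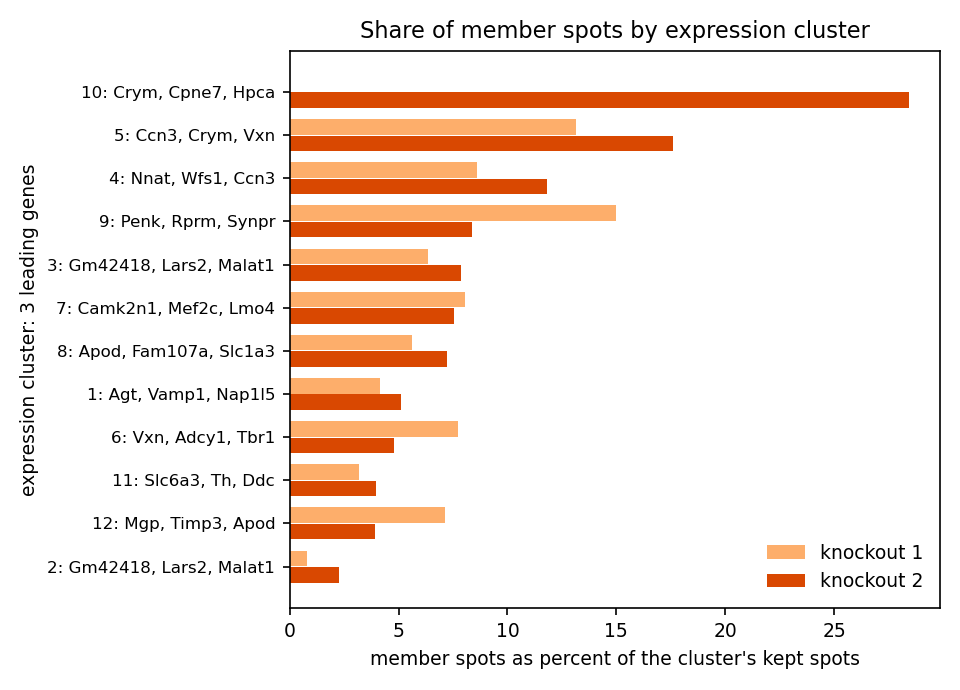
Member spots as a percent of the kept spots of each of 12 expression clusters, labelled by their leading genes, in knockout 1 and knockout 2. Clusters 5 and 2 lie at the high and the low side in both libraries, while cluster 10 has 0 members in knockout 1 and 28.4% in knockout 2.

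The difference between members and matched spots was then compared between knockout and control libraries. The 73 control spots that met the rule were set against 105 and 114 matched control spots, and an interaction term of edgeR tested whether the 2 differences were unequal. Unlike knockout members, these control spots were shallower than other kept spots of their library. Medians were 7920 against 15403 UMIs in control 1 and 13136.5 against 16259.5 in control 2. The part of this depth contrast in the interaction was not tested. Of 13389 genes, 979 had a larger value in knockout (7.31%) and 920 in control (6.87%), 14.2% in all. Leaving out knockout 1 gave 743 genes and leaving out knockout 2 gave 712. In the control libraries themselves 1016 genes rose (7.59%) and 1028 fell (7.68%), 15.3% in all.

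Control spots that met the rule were set apart by genes of the meninges. Ptgds stood at 34884 and 16138 CPM in these control spots against 5592 and 2447 in matched control spots, while knockout members stood at 1247 and 1763 CPM against 2345 and 2344. Mitochondrial transcripts were 10.5% and 14.4% of UMIs in these control spots against 8.97% and 12.0% in their matched spots, above them, while in knockout members they were below, and their part in the difference was not tested. For Ptgds the difference of knockout minus control was -3.34 on the log2 scale (SE 0.117, adjusted p = 7.41e-10 by edgeR). All 9 tested genes of the leptomeninges list rose in the control spots and 8 of the 9 passed the interaction test, all lower in knockout. Over all genes 6.87% passed with the lower and 7.31% with the higher value in knockout. Of 13 neuron genes 11 passed with the higher value in knockout and 1, Slc17a6, with the lower (-0.77, adjusted p = 0.0314 by edgeR). Nrgn stood at 278 and 453 CPM against 1559 and 1690 in the controls (difference 2.36, SE 0.128, adjusted p = 7.16e-08). Pomc, a hormone precursor, stood at 1212 and 997 CPM against 31.2 and 37.3 in the control spots and at 5.81 and 5.64 against 7.14 and 7.16 in knockouts. Ranked by the leptomeninges list, 80.0% and 63.2% of these control spots were in the top 10% of their library, against 5.4% and 6.0% of knockout members.

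Globin genes rose in both groups, by 1.31 (log2) for Hbb-bs in the controls. That rise rested mostly on control 1, where Hbb-bs stood at 3180 CPM against 714 in matched spots, with 887 against 674 in control 2. The interaction did not pass for any of the 5 tested red cell genes. For Hbb-bs the difference was -0.30 (SE 0.366, adjusted p = 0.666), which does not show that the groups were equal. Retnlg also rose in the controls, by 4.18, and the interaction did not pass (-1.16, adjusted p = 0.502). Of the 12 neutrophil genes tested for it, 1 passed, Hdc (-2.92, SE 0.558, adjusted p = 0.00249), with 39 and 7 UMIs in the control spots. The interferon list passed in 9 of 22 genes and reactive astrocytes in 10 of 16, all with the larger rise in control spots. Of all genes tested for the interaction, 6.87% passed with the larger value in control.

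**Figure D5:**
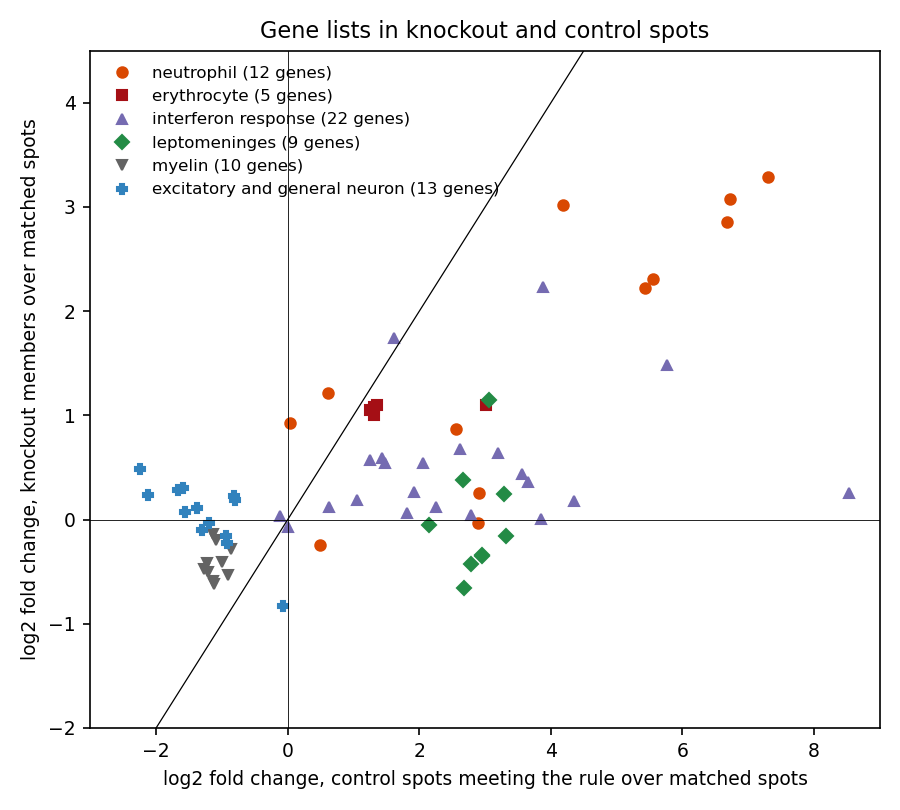
Log2 fold change of genes of 6 lists in control spots that met the rule (horizontal axis) and in knockout members (vertical axis), each over depth-matched spots of the same library, with the line of equality. Leptomeninges genes lie to the right and near 0 on the vertical axis, most neuron genes to the left, and 4 of the 5 red cell genes near the line.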

How the data were processed

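Spatial RNA was measured in 4 mouse brain libraries. Per the submitters' processing notes, the authors used Space Ranger and the mm10 build to count UMIs. The deposited matrices, whose values are whole numbers with unequal totals, hold raw counts per gene and barcode, and their headers, per the file headers' software line, were written by Cell Ranger 4. The aligner version is not given in the sources used here. Tissue images and spot positions were not used here.

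Spots with at least 1000 UMIs were kept. Members were summed per library, each with 3 matched spots drawn without replacement by nearest total UMIs, and S100a8 and S100a9 were removed. Sums were tested with edgeR 4.0.16 in R 4.3.3 (TMM, filterByExpr, quasi-likelihood, library as block, Benjamini-Hochberg, threshold 0.05). The member fit had 1 residual degree of freedom, with a prior of 37.1, and a common dispersion of 0.00135. Each SE is that of the log2 coefficient, with the spread as fitted by the model. The knockout and control member effects were compared by an interaction term, and whole sections by their sums over kept spots. DESeq2 1.42.0 was an alternative. Expression clusters were 12 k-means groups (scikit-learn 1.9.0) of 30 principal components over 2000 variable genes, without the genes of the lists. Other alternatives changed the UMI threshold, depth, matching, filter, block and libraries.

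Named genes were all tested genes of the neutrophil list, the 15 largest rises and 10 largest falls among called genes with a mean of at least 5 CPM, no predicted symbol and the same direction in both libraries, and up to 4 called genes of each list by smallest p (the 2 most abundant where fewer than 2 passed). Alas2, Trem3 and the interferon genes without values lie outside this rule and were added after their values were seen. A few genes that the rule named are not reported here. Of the 379 genes of 30 lists, 378 were among the gene names used. The members and lists were chosen with earlier results of these data known.

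On simulated counts for the comparison of members with matched spots (14811 genes), the test recovered 90.5% of 2-fold and 96% of 4-fold changes and called 8 unchanged genes. The simulation gave every gene the common dispersion of 0.00135 and the same change in both libraries. Genes on which the libraries disagree or that rest on single spots were not simulated, so it does not give the false calls among real genes. Libraries of a group differed by far more than sampling noise (chi-square per degree of freedom of 55.1 in controls and 16.7 in knockouts). The titles do not say that the replicate numbers pair samples, so the numbers were not taken to pair libraries. Deviations of same-numbered libraries from their group means had r = -0.118. With 2 libraries per group this is the same value for both numbers, and it cannot decide whether libraries pair.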

Additional observations from a re-analysis of the deposited data

Results flagged for a closer look

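The difference between spots that met the rule and their matched spots was unequal in knockout and control libraries for many genes, tested by the interaction term of edgeR. The 10 genes with the smallest p are given as the knockout change minus the control change on the log2 scale. Meningeal and secretory genes had the lower value in knockouts. For Ptgds the difference was -3.34 (SE 0.117), from 2.68 in the controls and -0.66 in the knockouts, and for the matrix protein gene Mgp it was -3.03 (SE 0.131), from 2.90 and -0.14. Pomc stood at -5.28 (SE 0.224), the interferon-induced membrane gene Ifitm3 at -2.73 (SE 0.192), the neuroendocrine gene Resp18 at -1.82 (SE 0.107) and the lipid carrier Apod at -1.55 (SE 0.107). Neuron genes had the higher value in knockouts. Nrgn stood at 2.36 (SE 0.128), the neuropeptide gene Cck at 2.11 (SE 0.115), Slc17a7 at 1.89 (SE 0.132) and the synaptic vesicle gene Syt1 at 1.49 (SE 0.104). The adjusted p of the 10 genes lay between 7.41e-10 and 9.87e-07.

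Spots under 1000 UMIs, which the comparisons left out, also held S100a8 and S100a9. Their summed level was 76.5 UMIs per 1000000 in knockout 1 (22 UMIs) and 52.7 in knockout 2 (18 UMIs), against 21.3 in control 1 (15 UMIs) and 11.8 in control 2 (5 UMIs).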

How the results depend on the processing

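The number of genes called between members and matched spots rested on the comparison spots, the depth and the tool. It was 649 (308 rises and 341 falls) as reported, 25 (21 and 4) with matching within expression clusters, 35 (12 and 23) with spots thinned to 1000 UMIs, where fewer genes could be tested, and 45 (18 and 27) with DESeq2. Without the replicate block of libraries it was 3. Other settings gave 479 to 857 calls, the last with members of 2 to 4 UMIs. The interaction count of 1899 was 1171 with DESeq2, 1294 with no replicate block and 712 to 1822 when 1 library was left out. The whole-section count of 6739 was 3233 with spots thinned to 1000 UMIs, 5813 with a replicate block by library number, and 4924 to 7182 when 1 library was left out. All alternatives to the interaction, the class of 2 to 4 UMIs and the values without the richest spots were chosen after seeing the data. Where no cause is named, the cause was not tested.

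The share of spots that met the rule moved with its threshold, in the order control 1, control 2, knockout 1, knockout 2. With at least 1 UMI it was 3.17, 3.15, 21.7 and 25.6%, and with at least 3 UMIs 0.682, 0.537, 2.24 and 4.03%. With at least 1 UMI of each gene it was 0.853, 0.732, 3.33 and 5.25%, in spots of at least 5000 UMIs 1.10, 1.37, 7.99 and 9.92%, and after thinning these to 5000 UMIs 0.529, 0.665, 1.93 and 2.51%. Both knockouts lay above both controls in each of these settings.

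Log2 differences of named genes that changed sign were mostly small and not called. With matching within expression clusters these were Apoe 8.33e-05, Cdk1 -0.14, Foxj1 0.29, Gp1bb -0.13, Ighm 0.32, Itga2b 0.16, Ms4a6c -0.057, Rarres2 -0.071 and Slc2a1 0.094, and, among genes called in the depth-matched comparison, Mobp 0.026, Neurod6 -0.0013, Nrgn -0.0036, Ptgds 0.026, Pvalb 0.031 and Slc17a7 -0.025. Without knockout replicate 2, Ccl4 stood at -0.42 and Cxcl1 at -0.31 (1.83 and 2.13 without knockout replicate 1), and without the richest spots Cartpt stood at -0.058. With at least 1 UMI of each gene Cdk1 was at -0.29, Gp1bb at -0.55, Kl at 0.19 and Slc2a1 at 0.018, and with at least 3 UMIs Gp1bb was at -0.62, Kl at 0.50, Pcna at -0.010 and Slc2a1 at 0.036. With 1 matched spot per member Cdk1 was at -0.18, Foxj1 at 0.22, Hdc at 0.70 and Vip at -0.12. With no matching on depth Cdk1 was at -0.082, Cldn5 at -0.034, Foxj1 at 0.0024, Gp1bb at -0.031 and Rarres2 at -0.036. With members of 2 to 4 UMIs Cdk1 was at -0.080, Cldn5 at -0.00018, Foxj1 at 0.080 and Mmp9 at -0.17. Foxj1 was at 0.030 in spots of at least 5000 UMIs, 0.039 with DESeq2 and 0.0079 with no replicate block, and Itga2b at 0.10 with DESeq2. With spots thinned to 1000 UMIs Pcna was at -0.011 and Vcan at 0.76. Depth limits sparse genes, and 18 of the 31 neutrophil genes could not be tested.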
